A study of Mus musculus with 6 samples.

Results

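Signals between the cells of blood vessels were followed in infarcted mouse myocardium through 10 genes of the angiopoietin-Tie and Notch pathways. They are the angiopoietin genes Angpt1 and Angpt2, the Tie receptor genes Tek and Tie1, the Notch ligand genes Dll4 and Jag1, the Notch receptor genes Notch1, Notch3 and Notch4, and the Notch target gene Hey1. They were taken by gene symbol, and all 10 were present among the 16199 symbols of the deposited table and among the 14025 genes tested. The 6 RNA libraries were 3 labelled ITIH5 knockdown and 3 labelled wild type, with every heart collected 7 days after the left anterior descending coronary branch was tied off, so that both groups carry the infarct. The sources used here do not give how the knockdown was made or in which cells it acts, nor the strain, sex and age of the mice. The labels do not tie libraries to separate animals, so each p-value reflects the spread between libraries alone, and part of that spread may be technical. The study asked whether ITIH5, a secreted hyaluronan-binding protein of the inter-alpha-trypsin inhibitor family, affects scarring after infarction through the immune response.

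As background, the Tie pathway sets how firmly endothelial cells hold together. Pericytes and other cells around the vessel release angiopoietin 1, which activates TIE2 (the product of Tek) and keeps vessels quiet and tight, whereas endothelial cells release angiopoietin 2, which can oppose it and loosen vessels for remodelling, and TIE1 is a partner receptor that modulates TIE2. In Notch signalling a ligand on one cell leads to cleavage of a receptor on its neighbour, and the freed receptor fragment enters the nucleus and, with the DNA-binding protein RBPJ, switches on targets such as Hey1. In sprouting vessels DLL4 on the leading tip cell restrains its neighbours through Notch, and JAG1 counters it.

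Itih5 itself was not lower in the libraries labelled knockdown. It stood at 18.4, 10.5 and 19.96 in replicates 1, 2 and 3 labelled knockdown, against 9.73, 13.1 and 17.2 in wild-type replicates 1, 2 and 3, on the deposited scale, which is close to TPM (transcript abundance corrected for length). The exact permutation test (two-sided) returned p = 0.5, and 3 against 3 libraries cannot give less than 0.1. Each direction that follows therefore refers to the labels. Heart muscle transcripts were present in every library, with the ventricular light chain gene Myl2 between 1392 and 7051, and so were endothelial transcripts, with Pecam1 between 134 and 290. Library totals ran from 901563 to 1159657, and depth is unknown, since the values are not counts. Many low values lie close to whole multiples of a library-specific step of 0.889 to 1.163. Of values above 0 and under 10 steps, 53.2%, 96.0% and 100% were within 0.05 step of a multiple in replicates 1, 2 and 3 labelled knockdown, against 99.5%, 85.5% and 61.8% in wild type, and replicate 1 labelled knockdown also held 1092 values well under 1 step. Such rounding limits the precision of Notch1 and, less so, of Angpt1. The groups were compared gene by gene with limma on log2(value + 1), a scale on which the change of low genes is understated.

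With limma, 0% of the 14025 genes passed at a Benjamini-Hochberg adjusted p of 0.05, and 0 of the 10 vessel genes did. At an unadjusted p under 0.05, 8.29% of all genes were higher in the libraries labelled knockdown (1162 genes) and 6.55% were lower (919 genes). Of the 10 vessel genes, 1 was higher at that level (Hey1) and 1 was lower (Angpt2), which is close to the shares over all genes. The groups did not overlap for 12.6% of all genes on the higher side and 9.88% on the lower side, and for 0 of the 10 vessel genes on either side. The log2 difference (labelled knockdown minus wild-type mean) was above 0 for 6 of the 10, against 50.8% of all genes, and below 0 for 4, against 49.2%. The median was 0.28 over the 10 genes and 0.0046 over all genes. When every library was rescaled to the same total, the split at unadjusted p under 0.05 turned to 458 genes higher and 1398 lower, and when mitochondrially encoded genes were also left out it was 1550 and 643. In both of these scalings Hey1 remained the higher and Angpt2 the lower member at that level.

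**Figure D1:**
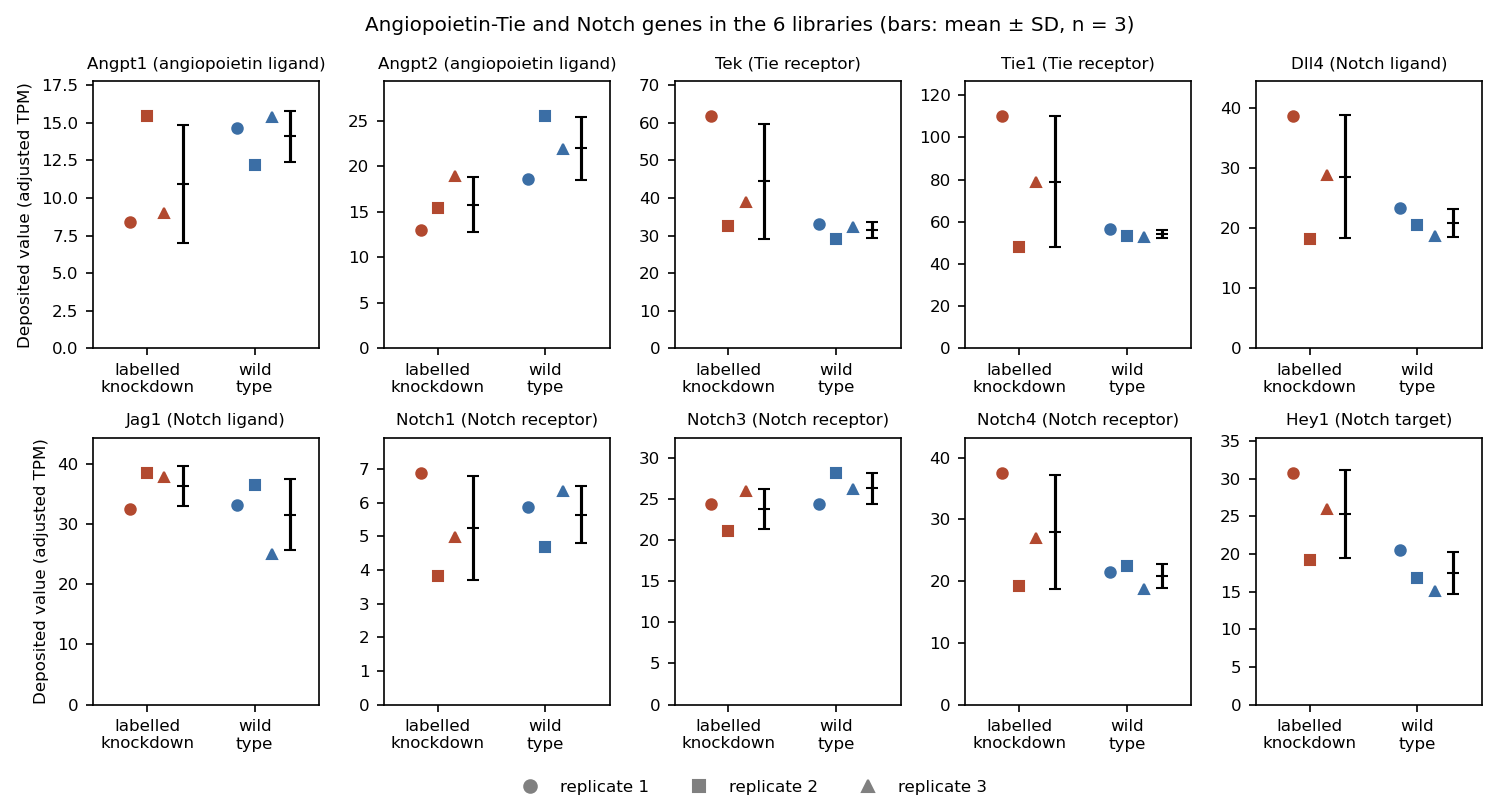
Deposited values (adjusted TPM, y axes starting at 0) of the 10 genes in the 3 libraries labelled knockdown (red) and the 3 wild-type libraries (blue); symbols mark replicate numbers and bars the mean ± SD. Tek, Tie1, Dll4, Notch1, Notch4 and Hey1 were highest in replicate 1 labelled knockdown, and no gene had groups that did not overlap.

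The 2 angiopoietin genes both had lower means in the libraries labelled knockdown. Both were lowest in replicate 1 of that group, at 0.592 of the wild-type mean for Angpt2 and 0.596 for Angpt1, and they differed in replicates 2 and 3. Angpt2, the vessel-loosening ligand, was at 13.0, 15.4 and 18.96 in the libraries labelled knockdown, against 18.5, 25.5 and 21.8 in wild type. Replicate 3 labelled knockdown lay just above wild-type replicate 1, so the groups overlapped by that pair alone. The means were 15.8 ± 3.002 in the libraries labelled knockdown and 21.9 ± 3.46 in wild type (SD, n = 3 each), a log2 difference of -0.46 with a 95% interval from -0.85 to -0.06 (limma unadjusted p = 0.0285, adjusted p = 0.308). Angpt2 lies on the minus strand of chromosome 8 (chr8:18690263-18741562 in mm10), inside Mcph1, a gene read from the opposite strand. The sources do not say whether reads were counted by strand, so reads of the pair cannot be told apart. Mcph1 was at 3.55, 4.82 and 3.99 in the libraries labelled knockdown, against 4.89, 4.70 and 4.51 in wild type, well under Angpt2 in every library.

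Angpt1, the vessel-stabilising ligand, was at 8.41, 15.4 and 8.98 in the libraries labelled knockdown, against 14.7, 12.2 and 15.4 in wild type. Replicates 1 and 3 labelled knockdown were below every wild-type library, whereas replicate 2 was as high as the highest of them. The means were 10.9 ± 3.91 in the libraries labelled knockdown and 14.1 ± 1.68 in wild type (SD, n = 3 each), a log2 difference of -0.38 (95% interval -0.90 to 0.14, limma adjusted p = 0.423). Without replicate 1 labelled knockdown the log2 difference was -0.23, and without replicate 2 of that group it was -0.63. Angpt1 is on the minus strand of chromosome 15 (chr15:42424723-42676977).

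The ratio of Angpt2 to Angpt1, often read as a sign of vessel remodelling, did not separate the groups. It was 1.55, 0.997 and 2.11 in the libraries labelled knockdown, against 1.26, 2.09 and 1.42 in wild type. The exact two-sided permutation test on the log2 ratio gave p = 1, adjusted p = 1 over 3 ratios. Angpt2 stood above Angpt1 in 5 of 6 libraries, replicate 2 labelled knockdown being the exception.

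The Tie receptor genes had higher means in the libraries labelled knockdown, carried by 1 or 2 of the 3 libraries. Tie1 (chr4:118471191-118490061, minus strand) was at 110.0, 48.0 and 78.8 in the libraries labelled knockdown, against 56.6, 53.4 and 52.9 in wild type. Replicates 1 and 3 labelled knockdown exceeded every wild-type library, at 2.03 and 1.45 times the wild-type mean, and replicate 2 was below all of them. The log2 difference was 0.45 (95% interval -0.18 to 1.09, limma adjusted p = 0.430).

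Tek, the TIE2 gene (chr4:94739289-94874976, plus strand), was at 61.8, 32.7 and 38.9 in the libraries labelled knockdown, against 33.2, 29.0 and 32.2 in wild type. Replicate 2 labelled knockdown fell inside the wild-type range and the other two were above it. The log2 difference was 0.44 (95% interval -0.08 to 0.95, limma adjusted p = 0.374). Tie1 was the higher of the pair in 6 of 6 libraries. Their ratio was 1.78, 1.47 and 2.03 in the libraries labelled knockdown, against 1.71, 1.84 and 1.64 in wild type (exact two-sided permutation p = 1, adjusted p = 1 over 3 ratios). Without replicate 1 labelled knockdown both log2 differences were 0.18, and without replicate 2 of that group they were 0.77 for Tie1 and 0.63 for Tek.

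Among the Notch ligand genes, Dll4 showed the pattern of the Tie receptors and Jag1 did not. Dll4, the tip-cell ligand (chr2:119325784-119335962, plus strand), was at 38.7, 18.2 and 28.9 in the libraries labelled knockdown, against 23.4, 20.6 and 18.7 in wild type. As for Tie1, replicates 1 and 3 labelled knockdown were above every wild-type library and replicate 2 was below them all. The log2 difference was 0.38 (95% interval -0.21 to 0.97, limma adjusted p = 0.469), and 0.14 without replicate 1 labelled knockdown. The annotation places the transcript Gm14207 on the opposite strand of Dll4, and it was at 6.79, 2.86 and 5.99 in the libraries labelled knockdown, against 2.91, 3.73 and 3.57 in wild type, so it too was higher in replicates 1 and 3.

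Jag1, the ligand that counters DLL4 and is also made by smooth muscle and other stromal cells (chr2:137081456-137116644, minus strand), was at 32.5, 38.6 and 37.9 in the libraries labelled knockdown, against 33.2, 36.6 and 25.0 in wild type. Here replicate 1 labelled knockdown was the lowest of its group, and wild-type replicate 3 was the lowest of all. The log2 difference was 0.21 (95% interval -0.15 to 0.57, limma adjusted p = 0.508), 0.05 without wild-type replicate 3 and 0.32 without wild-type replicate 2. The ratio of Dll4 to Jag1 was 1.19, 0.472 and 0.763 in the libraries labelled knockdown, against 0.706, 0.562 and 0.748 in wild type (exact two-sided permutation p = 0.7, adjusted p = 1 over 3 ratios). Jag1 exceeded Dll4 in 5 of 6 libraries, all but replicate 1 labelled knockdown.

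The 3 Notch receptor genes differed among themselves. Notch4, the receptor gene expressed mainly by endothelium (chr17:34564268-34588503, plus strand), was at 37.6, 19.2 and 26.9 in the libraries labelled knockdown, against 21.5, 22.5 and 18.7 in wild type. Replicates 1 and 3 labelled knockdown were again above every wild-type library, while replicate 2 lay within their range. The log2 difference was 0.35 (95% interval -0.17 to 0.88, limma adjusted p = 0.451), and 0.12 without replicate 1 labelled knockdown.

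Notch3, the receptor gene of pericytes and vascular smooth muscle (chr17:32120820-32166852, minus strand), was the steadiest of the 10. It was at 24.4, 21.2 and 25.9 in the libraries labelled knockdown, against 24.4, 28.2 and 26.2 in wild type, a log2 difference of -0.14 (95% interval -0.40 to 0.12, limma adjusted p = 0.535), and -0.06 without replicate 2 labelled knockdown. Its SD over the 6 libraries was 0.13 on the log2 scale, where those of the other 9 ran from 0.22 (Jag1) to 0.45 (Tie1). Notch1, the broadly expressed receptor gene (chr2:26457903-26516663, minus strand), was the lowest of the 10 in level, at 6.89, 3.82 and 4.99 in the libraries labelled knockdown, against 5.87, 4.69 and 6.34 in wild type. Replicate 1 labelled knockdown was above every wild-type library and replicate 2 was below them all. The Notch1 values equal about 4 to 7 of the library-specific steps. Its log2 difference was -0.11 (95% interval -0.59 to 0.37, limma adjusted p = 0.806). It turned to 0.06 without replicate 2 labelled knockdown and was -0.30 without replicate 1 of that group.

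Hey1, which encodes a transcriptional repressor switched on by Notch (chr3:8663359-8667256, minus strand), had the highest log2 difference of the 10. It was at 30.8, 19.2 and 25.9 in the libraries labelled knockdown, against 20.5, 16.8 and 15.1 in wild type. Replicates 1 and 3 labelled knockdown were above every wild-type library, and replicate 2 stood between wild-type replicates 1 and 2. The means were 25.3 ± 5.81 in the libraries labelled knockdown and 17.5 ± 2.75 in wild type (SD, n = 3 each), a log2 difference of 0.50 (95% interval 0.06 to 0.94, limma unadjusted p = 0.0319, adjusted p = 0.313). It was 0.35 without replicate 1 labelled knockdown and 0.67 without replicate 2 of that group.

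**Figure D2:**
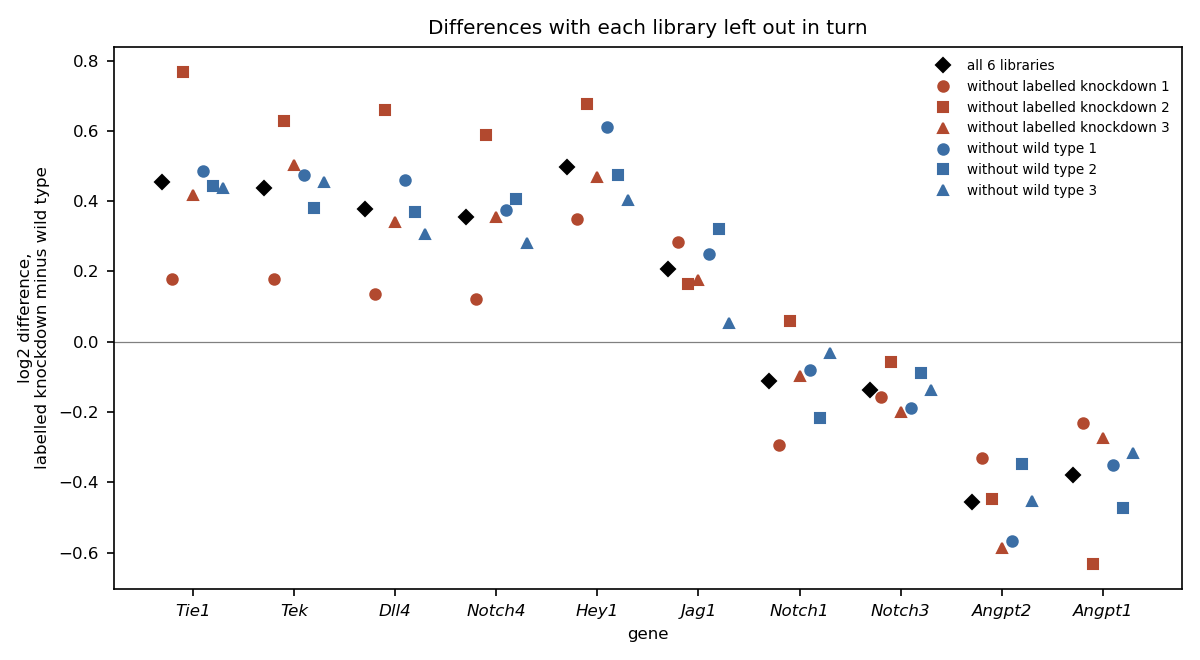
Log2 difference of each gene from the limma fit (y axis, labelled knockdown minus wild-type libraries) with all 6 libraries (black) and with each library left out in turn. Leaving out replicate 1 labelled knockdown brought Tie1, Tek, Dll4 and Notch4 down to between 0.12 and 0.18, while leaving out replicate 2 of that group raised them to between 0.59 and 0.77.

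In level, Tie1 led in both groups and Notch1 was last in both. In the libraries labelled knockdown the means ran from Tie1 (78.9 ± 31.0) through Tek (44.4 ± 15.3), Jag1 (36.3 ± 3.35), Dll4 (28.6 ± 10.2), Notch4 (27.9 ± 9.24), Hey1 (25.3 ± 5.81), Notch3 (23.8 ± 2.44), Angpt2 (15.8 ± 3.002) and Angpt1 (10.9 ± 3.91) to Notch1 (5.23 ± 1.55; SD, n = 3). Only Notch3 over Angpt2 and Angpt1 over Notch1 were neighbours with library ranges that did not overlap in that order. In wild type it ran from Tie1 (54.3 ± 2.02) through Jag1 (31.6 ± 5.94), Tek (31.5 ± 2.19), Notch3 (26.3 ± 1.90), Angpt2 (21.9 ± 3.46), Dll4 (20.9 ± 2.36), Notch4 (20.9 ± 1.94), Hey1 (17.5 ± 2.75) and Angpt1 (14.1 ± 1.68) to Notch1 (5.63 ± 0.850; SD, n = 3). There Tie1 over Jag1, Tek over Notch3 and Angpt1 over Notch1 did not overlap, and the other neighbours did. Angpt2 stood at rank 8 in the libraries labelled knockdown and at rank 5 in wild type.

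Blood endothelial marker genes, a list of 14 that holds none of the 10 genes, moved across the libraries with Tie1, Tek, Dll4, Notch4 and Hey1. Their summed level was 2172, 1015 and 1592 in the libraries labelled knockdown, against 1168, 1122 and 1143 in wild type, with no marker at 0 in any library. So replicates 1 and 3 labelled knockdown were high and replicate 2 was low here too. The mean was higher in the libraries labelled knockdown for 13 of the 14 markers (median log2 difference 0.36), 0 of them passed the test, and for 0 did the groups separate. In such bulk tissue, more endothelial cells and more of these transcripts per endothelial cell cannot be told apart.

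Other cell types shifted in some of the same libraries. Heart muscle markers summed to between 7632 and 27010 in the libraries labelled knockdown, highest in replicate 1, against 8076 to 9041 in wild type, and 10 of 10 had a higher mean in the libraries labelled knockdown. Pericyte markers summed to between 866 and 1331 in the libraries labelled knockdown, again highest in replicate 1, against 917 to 1041 in wild type, with 7 of 8 higher in mean (median log2 difference 0.12). The lower one was Pdgfrb, at 112, 132 and 135 in the libraries labelled knockdown, against 154, 144 and 140 in wild type. It was the only pericyte marker whose groups did not overlap, against 9.88% of all genes on the lower side and 12.6% on the higher. Macrophage markers summed to between 3399 and 6844 in the libraries labelled knockdown (the minimum being replicate 1), against 7328 to 9884 in wild type, and 8 of 8 had a lower mean. Fibroblast markers summed to between 10277 and 15812 in the libraries labelled knockdown, against 13966 to 16415 in wild type, with 5 of 8 lower in mean. No marker of these 4 lists was at 0 in any library. In a fit with the heart muscle marker score as a covariate the log2 differences of Tie1 (0.24), Dll4 (0.19), Tek (0.18) and Notch4 (0.15) were smaller, Angpt2 was at -0.28 and Notch1 at -0.28. In a fit with the macrophage marker score, which separates the groups, Tek (-0.05), Dll4 (-0.09), Tie1 (-0.13), Notch4 (-0.16) and Angpt1 (0.04) changed sign, and that score and the group cannot be told apart. None of the 10 was at an unadjusted limma p under 0.05 in either fit. The part of the pericyte and fibroblast markers in the vessel gene values was not tested.

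Adipocyte, mesothelial and B cell marker scores (means of centred log2 values) split the libraries differently, being low in replicates 1 and 2 labelled knockdown and not in replicate 3. Adipoq, the adiponectin gene, was at 0.453, 0.827 and 84.8 in the libraries labelled knockdown, against 29.1, 91.3 and 45.5 in wild type. Plin1, Cidec and Lep of the 6 adipocyte markers were listed at 0 in at least 1 library, whereas Fabp4, a list member that capillary endothelium also expresses, was at 1032, 218 and 569 in the libraries labelled knockdown, against 350, 340 and 291 in wild type. The summed level in the libraries labelled knockdown, against wild type, was 223 to 1572 against 688 to 1304 for adipocyte markers, 18.7 to 169 against 80.9 to 119 for mesothelial markers, and 508 to 2106 against 1967 to 3363 for B cell markers. Of the 10 vessel genes, Angpt2 had the same split, with replicates 1 and 2 labelled knockdown below every wild-type library and replicate 3 inside their range, and so had Notch3, though its replicate 1 labelled knockdown and wild-type replicate 1 both round to 24.4. The part of these 3 lists in the values of Angpt2 and Notch3 was not tested.

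**Figure D3:**
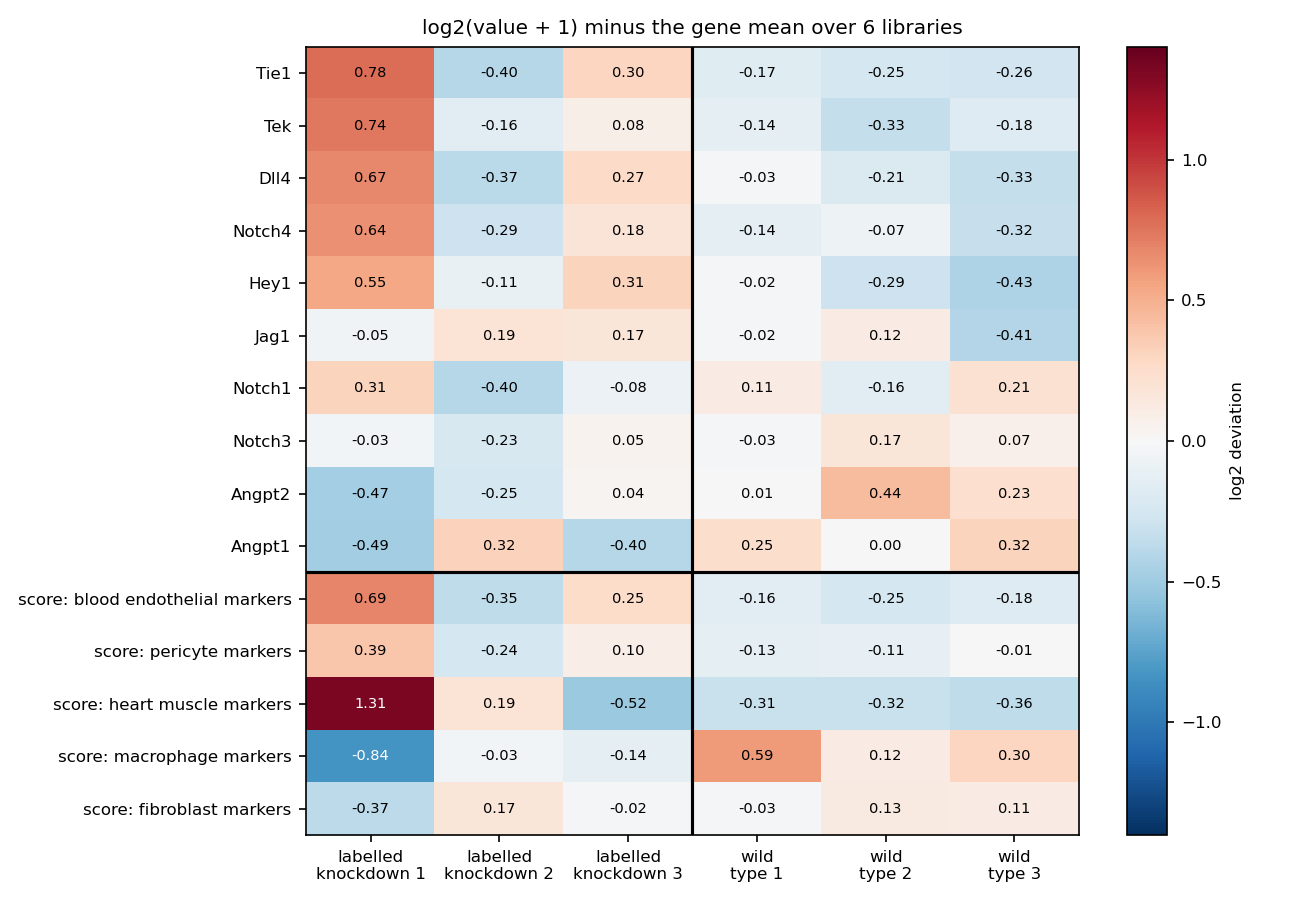
Each cell gives log2(value + 1) in a library minus the mean over the 6 libraries, for the 10 genes (top) and as the mean over the members of 5 marker lists (bottom), with the libraries labelled knockdown on the left. Tie1 (0.78, -0.40 and 0.30 in replicates 1, 2 and 3 labelled knockdown) tracked the blood endothelial markers (0.69, -0.35 and 0.25), and Angpt1 (-0.49, 0.32 and -0.40) ran the other way.

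When each value was divided by the mean of the 14 endothelial markers in the same library, the spread of some vessel genes fell and that of others rose. Tie1, Dll4, Notch4 and Tek became nearly level: the SD over the 6 libraries was 0.06 log2 units for Tie1 (0.45 as deposited), 0.09 for Dll4 (0.40 as deposited), 0.11 for Notch4 (0.36 as deposited) and 0.12 for Tek (0.38 as deposited). Hey1 came down as well, to 0.19 (0.37 as deposited). Angpt1 went up to 0.74 (0.36 as deposited), Angpt2 to 0.65 (0.33 as deposited), Jag1 to 0.46 (0.22 as deposited), Notch3 to 0.41 (0.13 as deposited) and Notch1 to 0.31 (0.26 as deposited). The divisor was itself at 114.9, 55.8 and 85.0 in the libraries labelled knockdown, against 63.9, 60.2 and 63.0 in wild type. A gene that is level as deposited, such as Notch3, therefore gains spread from it, and a rise is no trait of that gene. The points share libraries and a common divisor, so this is a description of these 6 libraries.

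Relative to the endothelial markers, the log2 difference was 0.06 for Tie1, 0.05 for Tek, -0.01 for Dll4, -0.04 for Notch4 and 0.11 for Hey1, with limma adjusted p between 0.876 and 0.986. Angpt2 was at -3.04, -1.77 and -2.09 log2 units relative to the markers in the libraries labelled knockdown, against -1.71, -1.18 and -1.46 in wild type. Every library labelled knockdown was then below every wild-type library, with a log2 difference of -0.85 (limma unadjusted p = 0.0229, adjusted p = 0.453). For Angpt1 the difference was -0.77 (limma unadjusted p = 0.0390, adjusted p = 0.532), and replicate 2 labelled knockdown still lay above every wild-type library. Notch1 (-0.50) and Notch3 (-0.53) likewise had groups that did not overlap after the division, Notch3 only narrowly, and Jag1 was at -0.18. That makes 3 of the 10 without overlap on the lower side, against 9.89% of all genes under the same division, and 0 on the higher side, against 0.813%. At an unadjusted p under 0.05, 2 of the 10 were lower, against 8.32% of all genes, and 0 were higher, against 0.378%. The adjusted test was passed by 1.13% of all genes (158) under this division and by 0 of the 10. The median over all tested genes shifted to -0.39, so the 2 angiopoietin genes stood below it while Notch1 and Notch3 were near it.

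**Figure D4:**
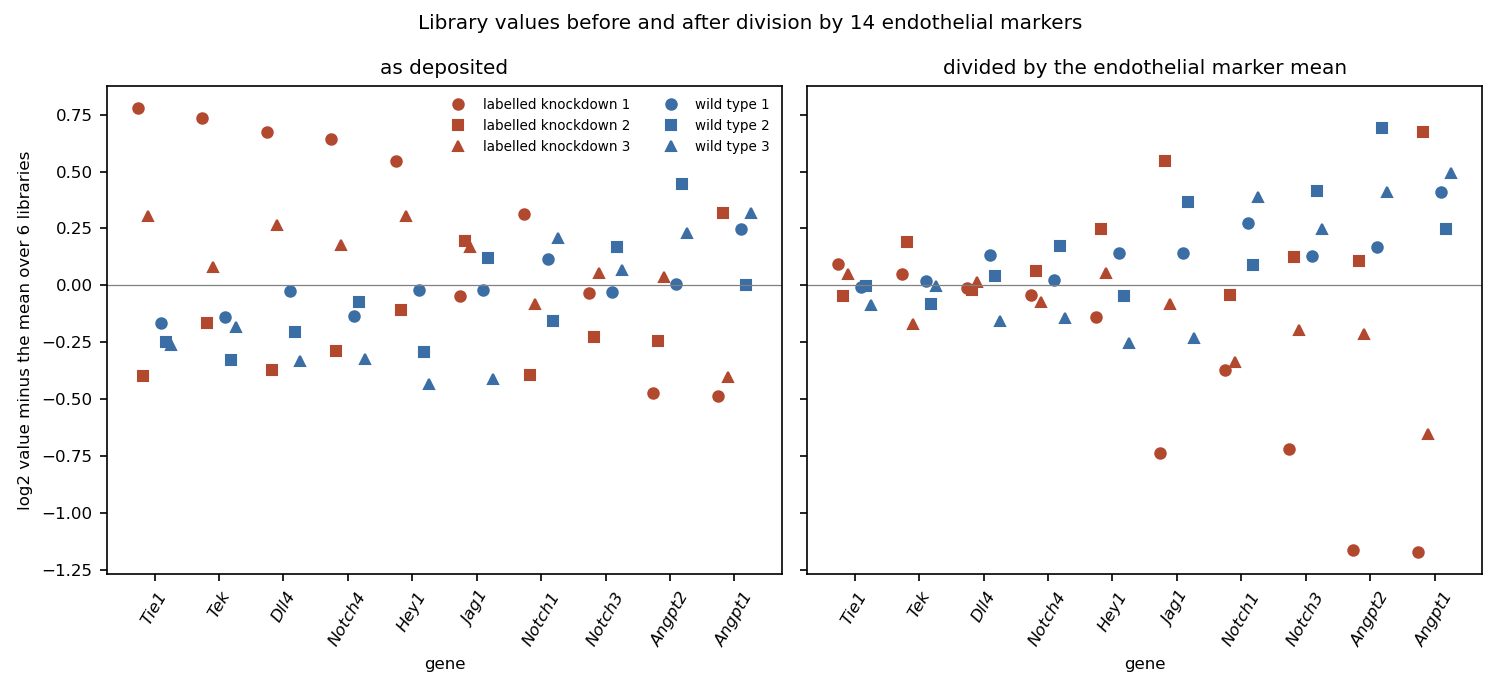
Log2 value of each gene in each library minus its mean over the 6 libraries (y axis), as deposited (left) and after division by the endothelial marker mean (right); red symbols are libraries labelled knockdown, blue symbols wild type. On the right Tie1, Tek, Dll4 and Notch4 draw together around 0, whereas Angpt1, Angpt2, Jag1 and Notch3 spread out. The spread is furthest for replicate 1 labelled knockdown, where the endothelial marker mean is highest.

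The start regions of the 4 genes that followed the endothelial markers most closely are shown because members that vary together can be compared by sequence. RefSeq (build GRCm38.p6) gave a window of 300 bases, 250 before and 50 after the start site, for 7 of the 10 genes. Here 3 short motifs were searched on both strands: AGGAAG, a form of the site of ETS factors, which endothelial genes widely use; TGGGAA, the core of the RBPJ site through which Notch acts; and AGATAA, bound by factors of the GATA family. Of 32851 windows of this length, 35.4% held AGGAAG, 25.6% held TGGGAA and 11.2% held AGATAA. Capitals mark each match on either strand, and no base lay in more than 1 motif. The windows are chr4:94739039-94739338 (plus strand) for Tek, chr4:118489800-118490099 (minus strand) for Tie1, chr2:119325534-119325833 (plus strand) for Dll4 and chr17:34564045-34564344 (plus strand) for Notch4, each written 5′ to 3′ along its gene:
Tek: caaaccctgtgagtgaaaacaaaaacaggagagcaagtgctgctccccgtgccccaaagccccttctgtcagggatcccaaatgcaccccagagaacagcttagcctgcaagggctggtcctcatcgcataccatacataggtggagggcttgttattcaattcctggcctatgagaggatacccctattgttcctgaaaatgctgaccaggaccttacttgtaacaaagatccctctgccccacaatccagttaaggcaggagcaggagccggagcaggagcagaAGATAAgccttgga
Tie1: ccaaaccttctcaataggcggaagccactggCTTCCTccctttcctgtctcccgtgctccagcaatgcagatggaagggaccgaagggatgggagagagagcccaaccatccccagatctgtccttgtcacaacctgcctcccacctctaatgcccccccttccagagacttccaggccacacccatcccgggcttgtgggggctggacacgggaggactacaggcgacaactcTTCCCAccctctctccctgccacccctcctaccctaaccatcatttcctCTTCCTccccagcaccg
Dll4: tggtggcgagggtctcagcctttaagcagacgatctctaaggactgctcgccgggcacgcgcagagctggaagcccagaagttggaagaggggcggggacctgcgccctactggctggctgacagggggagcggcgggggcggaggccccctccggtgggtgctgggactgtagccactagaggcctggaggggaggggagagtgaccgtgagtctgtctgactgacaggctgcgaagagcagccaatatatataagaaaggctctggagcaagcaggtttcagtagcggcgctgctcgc
Notch4: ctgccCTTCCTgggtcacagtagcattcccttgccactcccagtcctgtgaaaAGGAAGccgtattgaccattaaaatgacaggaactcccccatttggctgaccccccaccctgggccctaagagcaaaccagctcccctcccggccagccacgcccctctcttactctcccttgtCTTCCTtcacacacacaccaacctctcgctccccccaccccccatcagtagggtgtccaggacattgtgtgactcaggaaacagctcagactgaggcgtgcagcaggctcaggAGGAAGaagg

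Notch4 held 4 matches to AGGAAG and Tie1 held 2, besides 1 match to TGGGAA just before the RefSeq start site, which for Tie1 lies downstream of the start in GENCODE. Tek held 1 match to AGATAA just after its start, and Dll4 held no match to the 3 motifs in this window. The windows of Jag1, Notch1 and Notch3, whose spread rose under the division by the endothelial markers, held 0 matches. The RefSeq start sites of Jag1, Notch1 and Notch4 also lie downstream of the starts in GENCODE. The Notch1 window (chr2:26503773-26504072) does not reach the GENCODE start at 26516663, so its 0 matches do not describe that start. So of the 7 windows only those of Notch4 and Tie1 held AGGAAG, against 35.4% of all windows. Only that of Tie1 held TGGGAA, against 25.6%, and only that of Tek held AGATAA, against 11.2%. Whether the windows of genes that followed the endothelial markers differ from the others was not tested. A match describes letters, and which factors bind there was not measured.

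Genes whose library pattern was closest to each member were found among 10893 other genes with a mean of at least 5, by the root mean square difference of their centred log2 values over the 6 libraries. Tie1 was closest to Fgd5 (0.04) and to Sox18 (0.06), both known from endothelium; Sox18 was at 180, 86.5 and 135 in the libraries labelled knockdown, against 90.7, 91.8 and 94.4 in wild type. Tek was closest to Sema6d and Klhl4 (both 0.05), Dll4 to Sox13 and Gng11 (both 0.07), and Notch4 to Mall and Gng11 (both 0.05). Hey1 was closest to Dot1l (0.07) and Lmo1 (0.09). Gng11, a G protein gamma subunit gene that both Dll4 and Notch4 met, was at 369, 201 and 285 in the libraries labelled knockdown, against 224, 217 and 195 in wild type.

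The members whose spread rose under the division by the endothelial markers had other neighbours. Angpt1 was closest to Adamtsl3 (0.07) and to Sfrp1 (0.08), which encodes a secreted Wnt antagonist and was at 254, 435 and 299 in the libraries labelled knockdown, against 468, 395 and 496 in wild type. Angpt2 was closest to Rtn4rl2 (0.06) and to Col18a1 (0.10), the collagen gene that yields endostatin, at 56.3, 77.1 and 89.8 in the libraries labelled knockdown, against 86.9, 108 and 88.7 in wild type. Jag1 was closest to Abtb1 (0.04) and Nfia (0.05), Notch1 to Cdc42bpb (0.05) and St8sia4 (0.06), and Notch3 to Utp18 and Wdr53 (both 0.04).

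Of the other angiopoietin-Tie genes (ligands, the TIE2 phosphatase and signalling partners), 27 of 29 were tested, 13 with a higher and 14 with a lower mean in the libraries labelled knockdown (median log2 difference -0.05), and 0 passed. At an unadjusted p under 0.05, 1 was higher and 2 were lower, against 8.29% and 6.55% of all genes. Klf2, a flow-induced endothelial transcription factor gene, was at 183, 136 and 166 in the libraries labelled knockdown, against 109, 148 and 90.5 in wild type (log2 difference 0.49). The phosphoinositide 3-kinase subunit gene Pik3r1 (-0.27) and the adaptor gene Grb2 (-0.33) were lower with groups that did not overlap. In this list 4 genes did not overlap on the lower side and 0 on the higher side, against 9.88% and 12.6% of all genes. Pdgfb, the endothelial signal that recruits pericytes, was at 0.37. Without replicate 1 labelled knockdown Pdgfb was at 0.18 and Grb2 at -0.20, and without replicate 2 of that group Pdgfb was at 0.55. Ptprb, the phosphatase gene that restrains TIE2 and one of the 14 endothelial markers, was at 49.3, 27.8 and 30.9 in the libraries labelled knockdown, against 27.3, 25.3 and 33.3 in wild type (a gene named after its values were seen).

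Among other Notch ligand and receptor genes, 6 of 11 were tested, 4 with a higher and 2 with a lower mean (median log2 difference 0.44). At an unadjusted p under 0.05, 3 were higher (Dll1, Egfl7 and Mfap5) and 0 lower, against 8.29% and 6.55% of all genes, and 0 passed the test. The groups did not overlap for 2 on the higher side (Dll1 and Mfap5) and 0 on the lower, against 12.6% and 9.88% of all genes. Dll1, another Notch ligand gene, was at 7.97, 5.78 and 7.98 in the libraries labelled knockdown, against 4.87, 5.61 and 3.51 in wild type (log2 difference 0.55). Jag2, a ligand gene related to Jag1, was at 30.4, 9.54 and 21.0 in the libraries labelled knockdown, against 10.7, 11.2 and 9.69 in wild type (0.75), again high in replicates 1 and 3. Its log2 difference was 0.40 without replicate 1 labelled knockdown and 1.19 without replicate 2 of that group. Egfl7, a secreted endothelial protein gene that also stands among the endothelial markers, had 0.72 (0.47 without replicate 1 labelled knockdown), and the microfibril gene Mfap5, whose product can bind Notch, had 0.33. For Dll1 the gap between the groups, 5.78 against 5.61, was smaller than a step.

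Notch processing and modulator genes had a lower mean for 23 of 32 and a higher mean for 9 (median -0.10), against 49.2% and 50.8% of all genes. Of the 32, 2 were higher and 2 lower at an unadjusted p under 0.05, against 8.29% and 6.55% of all genes. The adjusted test was passed by 0. Numb, which encodes an inhibitor of Notch, was at 61.7, 32.7 and 38.9 in the libraries labelled knockdown, against 30.3, 26.2 and 28.5 in wild type (log2 difference 0.58, and 0.32 without replicate 1 labelled knockdown). Dtx3, a member of the Deltex family, was at 134, 118 and 148 in the libraries labelled knockdown, against 72.1, 115 and 66.2 in wild type (0.69). Furin, the protease gene for the first cut of the receptor (-0.31), and Ncstn, a gamma-secretase subunit gene (-0.27), were lower with groups that did not overlap. In this list the groups did not overlap for 4 genes on the lower side and 2 on the higher side, against 9.88% and 12.6% of all genes.

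Notch nuclear genes and targets were mixed, with 15 of 26 tested genes higher and 11 lower in mean (median 0.01). Of the 26, 0 were higher and 2 lower at an unadjusted p under 0.05, against 8.29% and 6.55% of all genes. The adjusted test was passed by 0. Snw1, a co-activator gene of the RBPJ complex, was at 9.34, 7.67 and 7.98 in the libraries labelled knockdown, against 11.7, 10.3 and 12.7 in wild type (log2 difference -0.43), and Bcl6 was at -0.40 (-0.23 without replicate 1 labelled knockdown). Rbpj itself was at 23.5, 25.0 and 25.9 in the libraries labelled knockdown, against 31.3, 24.4 and 37.3 in wild type (-0.29), with -0.15 without wild-type replicate 3 and -0.45 without wild-type replicate 2. Hes1, the target gene best known beside Hey1, was at 71.7, 71.3 and 55.9 in the libraries labelled knockdown, against 40.9, 61.1 and 51.1 in wild type (0.38, and 0.23 without wild-type replicate 1). The related targets Hey2 (0.14) and Heyl (0.01), named after their values were seen, were nearer to 0, and Heyl was at 57.0, 64.6 and 62.9 in the libraries labelled knockdown, against 71.3, 57.2 and 55.8 in wild type. Neither Hes1 nor Heyl had the library order of Hey1, Hes1 being nearly as high in replicate 2 labelled knockdown as in replicate 1.

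**Figure D5:**
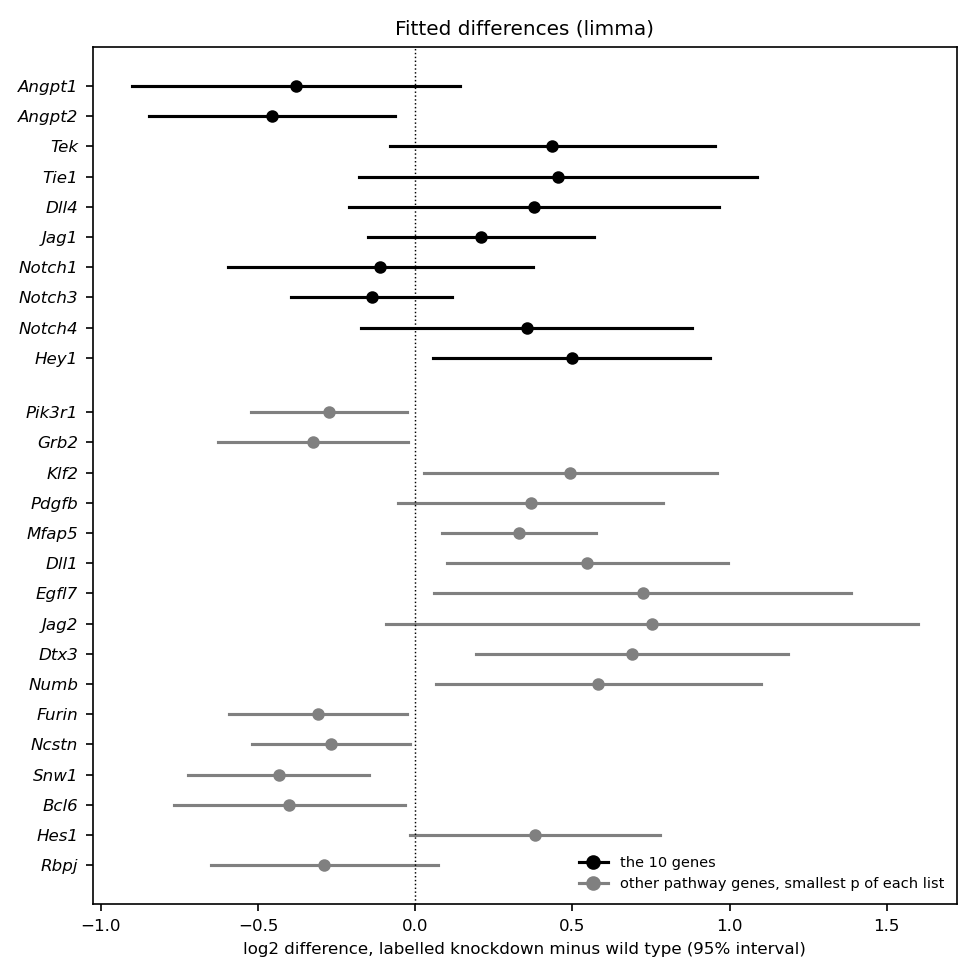
Log2 difference from the limma fit (x axis, labelled knockdown minus wild-type libraries) with its 95% interval for the 10 genes (black) and for the 16 other pathway genes with the smallest p of their lists (grey). Among the 10, the interval of Angpt2 (-0.85 to -0.06) and that of Hey1 (0.06 to 0.94) lie on 1 side of 0, before any adjustment for the 14025 genes tested.

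Markers of vessel subtypes did not share 1 direction. Of 6 arterial endothelial markers 3 had a higher and 3 a lower mean (median log2 difference 0.04). Gja5, the arterial connexin 40 gene, was at 22.3, 28.0 and 24.9 in the libraries labelled knockdown, against 37.1, 39.5 and 28.0 in wild type (-0.45). Gja4 (-0.18) and Sema3g (-0.04) were also lower in mean, and Sox17 (0.53), Bmx (0.24) and Efnb2 (0.13) were higher. Of these, Sema3g, Sox17 and Bmx were named after their values were seen. Of 6 tip cell markers 3 were higher and 3 lower (median -0.11), with the apelin gene Apln at 59.3, 18.1 and 37.9 in the libraries labelled knockdown, against 32.2, 30.0 and 37.9 in wild type. Lymphatic markers had 4 of 6 higher and 2 lower (median 0.33), and vascular smooth muscle markers 3 of 6 higher and 3 lower (median -0.07). Of 9 hypoxia-induced genes 6 had a higher and 3 a lower mean (median 0.19), and Vegfa, the growth factor gene that acts upstream of Dll4 and Angpt2 in sprouting, was at 208, 73.0 and 75.9 in the libraries labelled knockdown, against 43.9, 48.7 and 35.2 in wild type. Unlike Dll4, Vegfa was high in all 3 libraries labelled knockdown.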

How the data were processed

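Poly(A)-enriched RNA of infarcted mouse myocardium was sequenced as 6 libraries. The labels' protocols name 2 kits without assigning them. Per the submitters' processing notes the build was mm10; for the aligner, quantifier and annotation the sources used here give nothing. The table as deposited by the authors has 16205 rows with a score per library, which its name calls TPM and which was adjusted between libraries, since their totals differ and many low values, though not all, lie near multiples of a library-specific step. The adjustment is not stated, and no depth or count is known. Of rows sharing a symbol, 6 with lower means were left out.

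Genes averaging 1 or more over the 6 libraries (14025) were fitted as log2(value + 1) with limma 3.58.1 in R 4.3.3 (intensity trend, Benjamini-Hochberg adjustment, threshold 0.05, no covariate), a test planned for TPM and tested on simulated data. Exact permutation tests used SciPy 1.17.1. Coordinates come from GENCODE (release of the same build, which held 16018 of 16199 symbols). The members and lists were chosen with earlier results of these data known; the 3 ratios, the motifs both covariate alternatives, and the division by endothelial markers for genes other than the members were chosen after the values were seen. The rule for other named genes takes up to 4 genes with the smallest p per pathway list and up to 3 with the highest mean per marker list. For each member it takes the 2 genes of closest pattern. Exceptions are marked, and some genes stand in more than 1 list. Vegfa, Gja4, Gja5, Efnb2, Apln, Pecam1, Pdgfrb, Myl2, Adipoq and Fabp4 come from the marker rule. Replicate numbers are shared by the groups but nothing ties them to animals. Other annotated transcripts overlap Angpt1, Notch1, Notch3 and Notch4.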

Additional observations from a re-analysis of the deposited data

How the results depend on the processing

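The 10 vessel genes gave 180 values under alternatives, of which 171 kept their direction, 9 reversed and 0 passed the test. Divided by the endothelial marker mean, Dll4 (-0.0115), Jag1 (-0.18) and Notch4 (-0.0352) reversed; the division lowers every gene's difference by the same amount. In a fit that adds the macrophage marker score, chosen after seeing the data, Angpt1 (0.0446), Tek (-0.0495), Tie1 (-0.13), Dll4 (-0.0920) and Notch4 (-0.16) reversed; that score separates the groups, so it and the group cannot be told apart. In a fit that adds the heart muscle marker score, likewise chosen later, none of the 10 reversed, but 6 moved by over 1.5 times: Tek to 0.18, Tie1 to 0.24, Dll4 to 0.19, Notch4 to 0.15, Angpt2 to -0.28 and Notch1 to -0.28. Equal totals moved 5 by as much: Dll4 to 0.24, Notch4 to 0.22, Jag1 to 0.07, Notch1 to -0.24 and Notch3 to -0.28. Without replicate 2 labelled knockdown Notch1 reversed, and over the 6 left-out libraries it ran from -0.30 to 0.0599; the cause was not tested.

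Genes lower at an adjusted p under 0.05 numbered 0 to 13 over the left-out libraries (13 without replicate 3 labelled knockdown, 2 without wild-type replicate 2, otherwise 0). At an unadjusted p under 0.05, leaving out wild-type replicate 1 gave 660 higher and 338 lower genes, wild-type replicate 3 gave 655 and 386, and replicate 1 labelled knockdown gave 543 lower; equal totals gave 458 and 1398. Of the 10 genes, 6 were at that level without replicate 2 labelled knockdown (5 higher, 1 lower) and 0 without replicate 1 of that group or wild-type replicate 2 or 3. Equal totals shifted the median of all genes to -0.13, with 6 of the 10 still above it. With the replicate block, 1039 genes were higher and 764 lower at that level and 0 passed the adjusted test. Of the 10 genes, Hey1 and Tek were then higher and Angpt2 lower at that level. Deviations correlated across genes at 0.06, 0.06 and 0.14 for same-numbered libraries, against -0.11 to 0.06 for other-numbered ones. Nothing ties the numbers to animals, so they were not taken as pairs. The 16 other pathway genes kept their direction in all 240 values of the 15 alternatives first run for them. Of these values 17 moved by over 1.5 times, 11 of them over the left-out libraries and most often without replicate 1 labelled knockdown (6 genes). In the 48 values of the endothelial division and both covariate fits, run for these genes after their values were seen, 4 reversed: Pdgfb (-0.0226), Mfap5 (-0.0599) and Hes1 (-0.00996) under the division and Jag2 (-0.0438) with the macrophage score. Of these 48 values 35 moved by over 1.5 times. That held for all 16 genes under the division, 13 with the macrophage score and 6 with the heart muscle score. With the macrophage score Numb was at 0.10, Furin at -0.06, Ncstn at -0.05 and Grb2 at -0.01. Itih5 reversed under the division (-0.13) and with the macrophage score (-0.18). Rounding limits genes near 0, such as Notch1, and depth is unknown.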
